A study of Homo sapiens with 6 samples.

Results

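In A172 cells, a group of 76 genes rose at least 4-fold when ADAR1 siRNA was given and stayed at that level, or went higher, when Staufen1 siRNA was added. They are called the kept genes here. They were selected on their measured levels in all 6 libraries. The level was CPM (counts of a gene scaled to the total reads of its library), averaged over the libraries of a group with 0.1 CPM added. A kept gene had at least 1 CPM with the control siRNA, a log2 rise of at least 2 with the ADAR1 siRNA, and a recovery under 10%. Recovery is the opposite log2 change after Staufen1 siRNA as a percent of the log2 rise before it, so a negative value is a further rise. Of 20514 genes in the file, 12734 had at least 1 CPM in control cells and 392 of those rose at least 4-fold, of which 76 (19.4%) were kept. Apart from the 20514, these counts leave out 3 rows that were excluded from the start. The fits over all genes did not leave those rows out. Because these values chose the genes, their rise with ADAR1 siRNA and their lack of return are descriptions and carry no p-value.

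ADAR1 is an RNA-editing enzyme that turns adenosine into inosine within double-stranded RNA, and it also competes with other proteins that bind such RNA. Staufen1 is one of those proteins. It binds double-stranded structures in messenger RNAs, among them paired inverted Alu repeats, and recruits the decay factor UPF1, a route known as Staufen-mediated mRNA decay. The series asked how transcript levels depended on ADAR1 and on ADAR1 together with Staufen1.

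The cells were A172, an established human glioblastoma line, and each of 3 groups had 2 libraries with the letters a and b. The groups were named for what was transfected: siControl, a control siRNA; siADAR1, which targets ADAR1; or both siADAR1 and siStaufen1, the latter targeting Staufen1, called the combined knockdown here. The protocol text, shared by all libraries, also describes an HA-STAU1 plasmid given a day later, and the Staufen1 siRNA is absent from it. Cells given only Staufen1 siRNA were not analysed here, and its effect is therefore seen only on top of ADAR1 siRNA. Nothing in the labels says that the letters are separate cultures, so the spread between libraries may be technical.

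Library totals ran from 20291057 to 29508632 estimated reads. Within each group the replicates differed beyond sampling noise, at a chi-square per degree of freedom of 3.59 to 9.91, and no library was taken for a copy. Each gene is a row of UCSC hg19 transcript IDs without a gene name. The RefSeq table of assembly GRCh38.p14 lists 5 UCSC IDs among its synonyms, which matched 4 rows, and 0 of the kept genes. The kept genes are therefore described by level, change and number of transcripts, and 2 of them are printed with a first ID. The levels of ADAR and STAU1 and the markers of glioblastoma cells were not analysed here for the same reason.

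The kept genes were of low abundance in control cells and of middling abundance after ADAR1 siRNA. Their median level was 3.99 CPM in siControl (quartiles 2.30 and 10.8), which lies at the percentile 32.3 of the 14711 genes with enough reads to be tested. With siADAR1 the median was 24.3 CPM (quartiles 12.9 and 58.1), at the percentile 59.1. In the combined knockdown it was 29.8 CPM (quartiles 14.1 and 68.4), at the percentile 65.6. In siControl, 54 of the 76 genes were under 10 CPM, and the range over the genes was 0.906 to 186 CPM. It was 4.90 to 791 CPM with siADAR1 and 5.56 to 1252 CPM in the combined knockdown. All 76 had enough reads to be tested, and the lowest count of any kept gene in any library was 13 reads.

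**Figure D1:**
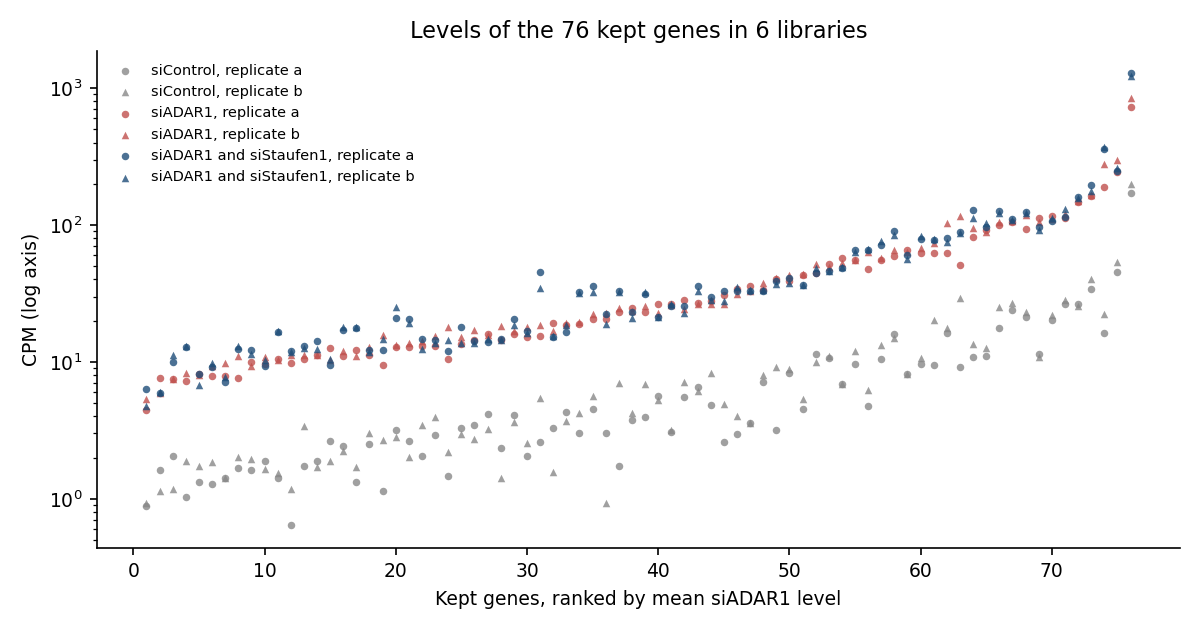
CPM (log axis) of each of the 76 kept genes in the 6 libraries, with the genes ranked by mean siADAR1 level; circles are replicate a and triangles replicate b. Grey siControl points lie below the red siADAR1 and blue combined knockdown points in all 76 genes, which the rule favours, and 58.6% of all genes tested had both siADAR1 libraries above both siControl libraries.

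As a set they took a small but growing share of each library. They held 0.0709% and 0.0844% of the reads in the siControl libraries a and b. They held 0.387% and 0.436% in the siADAR1 libraries, and 0.5004% and 0.492% in the combined knockdown libraries. Both combined knockdown libraries lay above both siADAR1 libraries, which lay above both siControl libraries. The rule asked for the first rise in every gene and removed genes that fell back, so it favours this order. A single gene made up 23.9% ± 0.412 of the set's reads with siControl, 19.2% ± 0.405 with siADAR1 and 25.2% ± 0.515 after the combined knockdown (SD, n = 2 each). Without it the shares were 0.0537% and 0.0644% in siControl, 0.313% and 0.351% in siADAR1 and 0.372% and 0.370% in the combined knockdown. The order of the groups was the same.

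**Figure D2:**
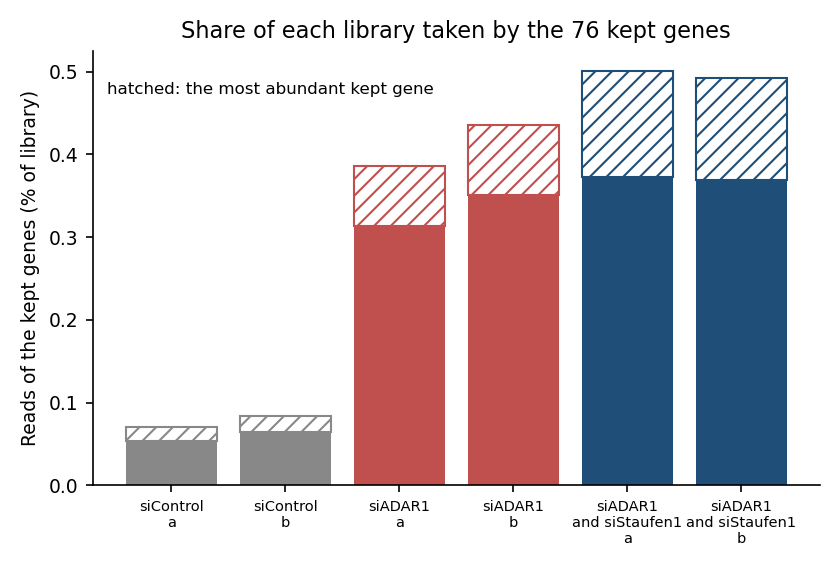
Share of each library's reads (%) taken by the 76 kept genes; the hatched part is the most abundant kept gene and the solid part the other 75. The bars reach 0.0709% and 0.0844% in siControl, 0.387% and 0.436% in siADAR1, and 0.5004% and 0.492% in the combined knockdown. The rule favours this order.

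The most abundant kept gene, a row of 2 transcripts, had 172 and 199 CPM in the siControl libraries a and b. It had 732 and 850 CPM with siADAR1 and 1281 and 1223 CPM in the combined knockdown, a 1.58-fold further increase of the mean. The second, a row of 4 transcripts, had 45.0 and 53.6 CPM, then 243 and 297 CPM, then 247 and 260 CPM. The combined knockdown values of the second gene fell inside the siADAR1 range, while those of the first gene lay above it. The fourth and the fifth most abundant were rows of 1 transcript. The fourth had 33.9 and 40.1 CPM in siControl, 161 and 167 CPM with siADAR1, and 197 and 176 CPM in the combined knockdown. The fifth had 26.3 and 25.8 CPM, then 147 and 151 CPM, then 159 and 158 CPM. In both, the combined knockdown libraries lay just above the siADAR1 libraries. The third most abundant was also the gene with the largest rise and is described next.

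The rise with siADAR1, for which the rule set a minimum of 4-fold, had a median of 4.98-fold over the 76 genes (log2 2.32, quartiles 2.15 and 2.75). It was under 5-fold in 38 genes and at least 8-fold in 10 genes, with a maximum of 12.1-fold. These values are on library totals. With TMM factors the median log2 rise of the same genes was 2.03 and the minimum 1.71, and 36 of the 76 were under the log2 threshold of 2. The 316 other genes that rose 4-fold had a median log2 rise of 2.32 as well, with a maximum of 4.27. The same minimum rise was set for both sets, so nothing is read from their like medians. Between siADAR1 and siControl, edgeR called all 76 kept genes higher, where 32.9% of all genes tested were called higher. With glmTreat, which asks for a change beyond 1.5-fold, all 76 were called, where 15.6% of all genes were. The rule used this contrast, so nothing is read from these counts.

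The gene with the first ID uc002mwr.3, a row of 2 transcripts, had the largest rise. It had 16.2 and 22.3 CPM in siControl, 190 and 277 CPM with siADAR1, and 358 and 372 CPM in the combined knockdown. The groups of uc002mwr.3 did not overlap at either step, although its siADAR1 libraries lay further apart than those of the combined knockdown. On the edgeR scale, which uses TMM factors, its log2 change was 3.29 (SE 0.17) for siADAR1 against siControl. It was 0.76 (SE 0.14) for the combined knockdown against siADAR1.

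The next 4 rises were in less abundant genes, and of these 4 edgeR called only the fourth largest higher again after Staufen1 siRNA. The second largest, a row of 4 transcripts, went from 0.641 and 1.17 CPM to 9.82 and 11.3 CPM, and stood at 12.0 and 11.7 CPM in the combined knockdown. The third, also of 4 transcripts, went from 3.01 and 0.930 CPM to 20.4 and 22.6 CPM and then to 22.5 and 18.9 CPM. Its siControl replicate b held only 0.309 of the level in replicate a, so its 10.4-fold rise is uncertain in size. The fourth, again of 4 transcripts, went from 4.78 and 6.27 CPM to 47.6 and 63.2 CPM, and the combined knockdown libraries at 66.2 and 66.9 CPM lay above both. The fifth, of 2 transcripts, went from 11.4 and 10.9 CPM to 112 and 106 CPM and then to 96.0 and 91.8 CPM, where both combined knockdown libraries lay below both siADAR1 libraries. It was kept because that step is small beside its first rise.

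Adding Staufen1 siRNA left the kept genes within a narrow range of their siADAR1 level or above it. The fold between the combined knockdown and siADAR1 ran from 0.839 to 2.34 with a median of 1.06, and the median log2 change was 0.09 beside -0.11 over all genes tested. Of the 76 genes, 43 were above their siADAR1 mean and 33 below it. Recovery lay within 10% of 0 in either direction in 51 genes and was under -10% in 25. The median recovery was -3.57%, against 27.8% over all 392 genes raised 4-fold. The rule fixes the lower side of this range, so only its spread above is open to the data.

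**Figure D3:**
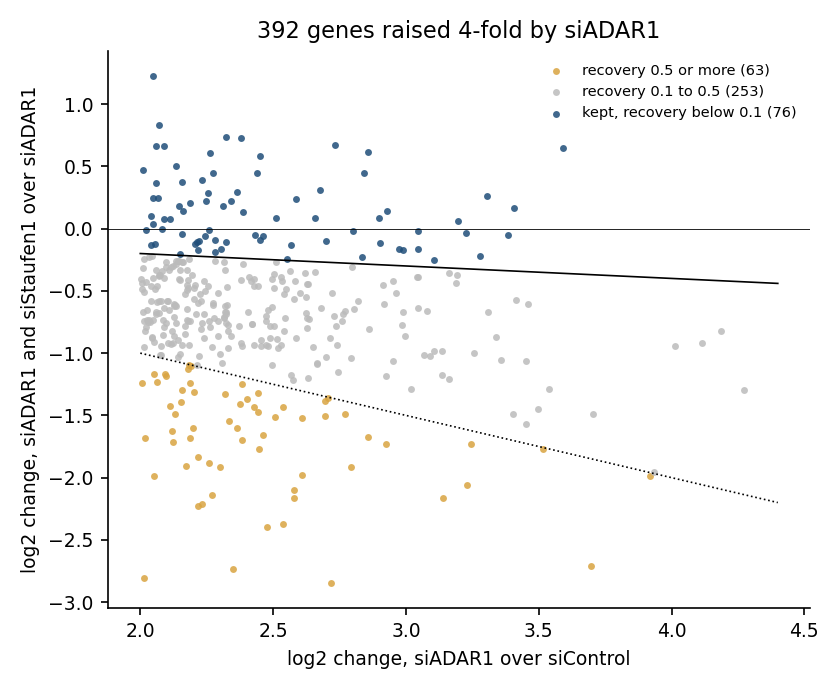
The 392 genes raised 4-fold, with the log2 change of siADAR1 over siControl against the log2 change of the combined knockdown over siADAR1, both from library-total CPM; the solid line is a recovery of 10% and the dotted line 50%. The 76 kept genes (blue) lie above the solid line by the rule, from -0.25 to 1.23 on the vertical axis, and both axes share the siADAR1 libraries.

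Further rises were counted with the edgeR fit over all genes. In the combined knockdown against siADAR1, 29 kept genes (38.2%) were called higher, where 21.7% of all genes tested were called higher, and 0 were called lower, where 21.5% of all genes were. The rule removes genes that fell, so neither count is evidence about the kept genes. At an unadjusted p of 0.05, edgeR's quasi-likelihood test gave 32 higher and 0 lower, where 25.4% and 25.1% of all genes were. DESeq2 with its adjusted p gave 27 and 0, where 19.3% and 17.7% of all genes were. The 29 genes rose 1.06-fold to 2.34-fold with a median of 1.36-fold. In all 29 both combined knockdown libraries lay above both siADAR1 libraries, where 27.5% of all genes tested did so. The call and the rule both favour this, so nothing is read from it. Without siADAR1 replicate a, 17 were called higher and 1 lower, where 14.6% and 15% of all genes were. Only 3 genes were called higher beyond 1.5-fold by edgeR glmTreat, where 3.05% of all genes tested were.

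By CPM alone, the combined knockdown libraries lay above both siADAR1 libraries in 35 kept genes, where 27.5% of all genes tested did so. They lay below both in 13, where 48.1% of all genes did, and overlapped in 28. These counts depend on how libraries are scaled. Relative to TMM factors, scaling by library totals moved the median log2 change of all genes by 0.30 for the siADAR1 step and by -0.11 for the step from siADAR1 to the combined knockdown. The number of kept genes above their siADAR1 mean was 43 with library totals and 60 with TMM, so the direction of 17 genes near 0 turned with the scaling. With library totals, edgeR called 20 kept genes higher and 2 lower, where 15% and 30% of all genes were.

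**Figure D4:**
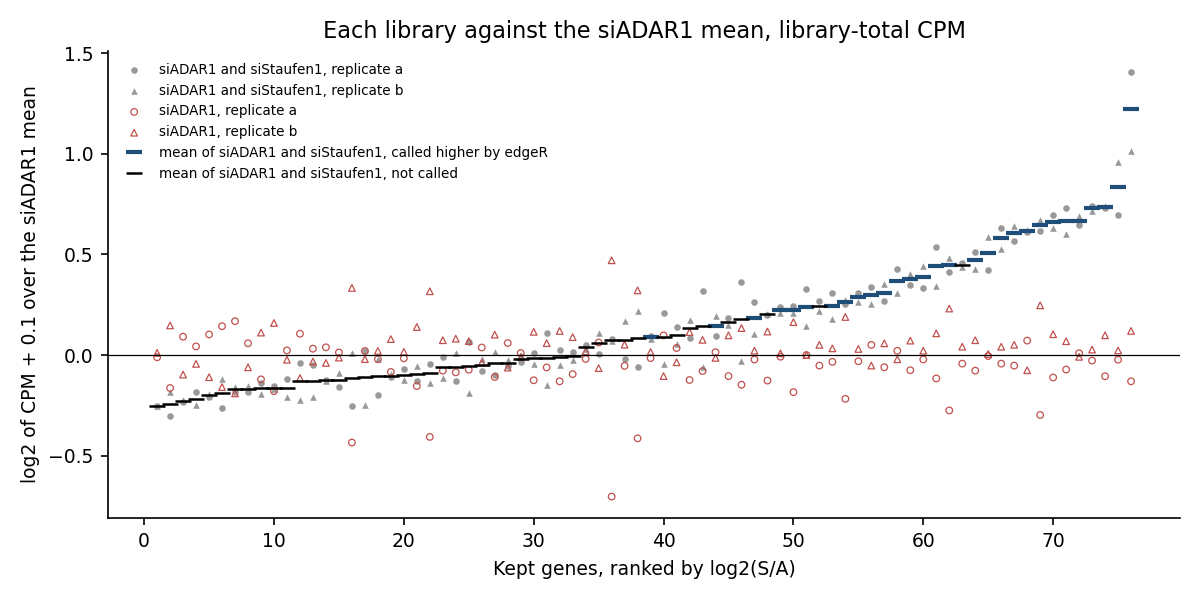
Each library's level of the 76 kept genes as log2 of CPM + 0.1 over the siADAR1 mean, ranked by the combined knockdown's mean (dashes, blue where edgeR called the gene higher, with TMM factors); grey points are combined knockdown libraries and open red points siADAR1 libraries. The dashes run from -0.25 to 1.23, and 29 of them are blue.

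The gene with the first ID uc010myt.1, a row of 1 transcript, rose furthest beyond its siADAR1 level. It had 2.61 and 5.46 CPM in siControl, 15.5 and 18.5 CPM with siADAR1, and 45.2 and 34.5 CPM in the combined knockdown. The combined knockdown libraries of uc010myt.1 lay 2.34-fold above siADAR1 on average without overlap, and its siControl libraries differed 2.09-fold from each other. On the edgeR scale its log2 change was 1.74 (SE 0.23) for siADAR1 against siControl and 1.34 (SE 0.18) for the combined knockdown against siADAR1.

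The next 4 further rises were alike in size. The second, a row of 2 transcripts, had 3.20 and 2.83 CPM in siControl, 12.8 and 13.2 CPM with siADAR1 and 21.1 and 25.3 CPM in the combined knockdown. The third, of 3 transcripts, had 1.03 and 1.90 CPM, then 7.20 and 8.30 CPM, then 12.9 and 13.03 CPM. The fourth, of 1 transcript, had 3.01 and 4.24 CPM, then 18.9 and 19.6 CPM, then 32.3 and 31.7 CPM. In all 3 genes both combined knockdown libraries lay above both siADAR1 libraries. The fifth, of 2 transcripts, went from 1.43 and 1.54 CPM to 10.5 and 10.4 CPM and then to 16.4 and 16.9 CPM. These 5 genes had only 4.13-fold to 6.66-fold first rises, and 10 kept genes in all rose at least 1.5-fold further.

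Further rises were counted by siControl level, again among genes from which the rule had removed those that fell. Of the 18 kept genes under 2 CPM in siControl, 7 were called higher in the combined knockdown against siADAR1, where 9.20% of all tested genes of that level with at least 1 CPM (0.1 added) were. Of the 36 genes from 2 to 10 CPM, 10 were called, where 15.3% of all genes of that level were. Of the 22 genes at 10 CPM or more, 12 were called, where 31.3% were. Nothing is read from the gap to these shares, since the rule used this contrast. The median log2 change after Staufen1 siRNA was 0.15, -0.01 and 0.17 in these 3 classes. The first rise had medians of 2.51, 2.26 and 2.25. The siControl level that sets the classes is also the base of that rise, so these 3 medians are not compared. A gene with few reads needs a larger change to be called, so the counts cannot be compared between levels as if depth were equal.

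The number of transcripts in a row was not used to choose the genes. The 76 rows held 241 transcript IDs, with a median of 2 and at most 13 per row, against a median of 3 over all rows tested. Rows with 1 transcript made up 28.9% of the kept genes (22 of 76) and 23.6% of all rows tested. Rows with 5 or more made up 22.4% (17 of 76) and 26.1%. Among the genes raised 4-fold with a recovery of 10% to 50%, 24.9% had 1 transcript and 24.9% had 5 or more. Among those with a recovery of at least 50%, the shares were 28.6% and 30.2%. The median was 3 in both of these classes, 1 more than in the kept genes, and no test was made over rows.

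**Figure D5:**
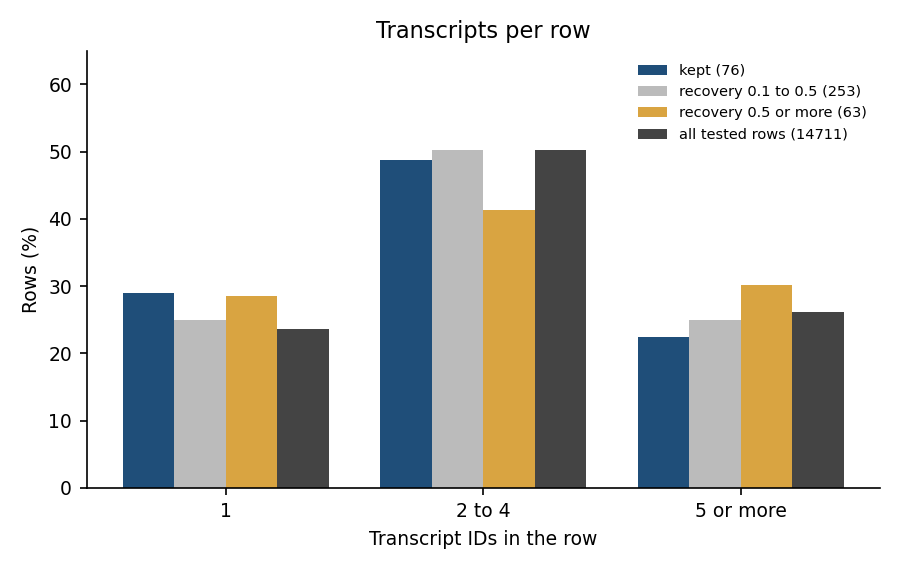
Percent of rows with 1, 2 to 4, or 5 or more transcript IDs, for the kept genes, the genes raised 4-fold with more recovery, and all tested rows. Rows of 1 transcript are 28.9% of the kept genes and 23.6% of all tested rows, and rows of 5 or more are 22.4% and 26.1%.

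Further rises were also counted by transcripts per row. Of the 22 rows with 1 transcript, 11 were called higher in the combined knockdown against siADAR1, where 19.96% of all tested rows of 1 transcript were. Of the 37 rows with 2 to 4 transcripts, 13 were called, where 22.5% of all such rows were. Of the 17 rows with 5 or more, 5 were called, where 21.9% were. The rows above their siADAR1 mean numbered 15, 21 and 7, and the rule favours both counts. The median log2 changes were 0.11, 0.14 and -0.05, while the first rise was alike at 2.37, 2.28 and 2.32. Rows are not replicates, and the difference between these classes was not tested.

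The genes raised 4-fold with more recovery were set beside the kept genes. The 253 genes with a recovery of 10% to 50% had a median of 4.68 CPM in siControl, 25.2 CPM with siADAR1 and 15.4 CPM in the combined knockdown. The 63 genes with a recovery of at least 50% had medians of 2.92, 15.5 and 4.88 CPM. The kept genes, at 3.99, 24.3 and 29.8 CPM, were close to the first of these classes in siControl and siADAR1, while the second class was lower in both groups. In the combined knockdown the classes differ by the rule itself. The boundary between kept and partly recovered genes is not a gap. The 3 kept genes with the highest recovery had 9.46%, 9.36% and 8.35%, and the 3 genes just outside had 10.6%, 10.6% and 10.9%.

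The other thresholds had near neighbours as well. The 3 smallest log2 rises among the kept genes were 2.01, 2.02 and 2.04, and the 3 largest among genes that missed only this threshold were 1.998, 1.98 and 1.97. The 3 lowest siControl levels among the kept genes, with 0.1 CPM added, were 1.01, 1.01 and 1.48 CPM. The 3 highest among genes that missed only this threshold were 0.964, 0.962 and 0.953 CPM. These 3 genes had thus met the recovery limit, which leaves out genes that fell back. That limit favours their further log2 rises with Staufen1 siRNA, of 0.67, 0.44 and 0.29.

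Replicates of the kept genes differed most in control cells. The median difference between libraries b and a, in absolute log2, was 0.27 in siControl, 0.14 in siADAR1 and 0.08 in the combined knockdown, beside 0.15, 0.09 and 0.10 over all genes tested. In siControl, 8 kept genes differed at least 2-fold between the libraries and 52 were higher in b, where 51.2% of all genes were higher in b. In siADAR1, 1 differed at least 2-fold and 53 were higher in b, where 49.2% of all genes were. No share over all genes was counted at 2-fold, so nothing is read from the 2-fold counts. In the combined knockdown 0 differed at least 1.5-fold, where 6.19% of all genes did, and 35 were higher in b, where 45.9% were. At that lower limit of 1.5-fold, 17 kept genes differed in siControl and 4 in siADAR1, where 10.4% and 5.52% of all genes did. The gene with the widest siADAR1 gap, a row of 4 transcripts singled out after its values were seen, had 9.17 and 29.4 CPM in siControl and 51.4 and 116 CPM with siADAR1. Its combined knockdown libraries had 88.7 and 88.1 CPM, so whether it had risen further depended on which siADAR1 library was used.

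The genes were also chosen in libraries of 1 letter and read in the other, as a description with 1 library per group and letters that may be technical repeats. The counts that follow have no like share over all genes raised 4-fold beside them. Neither those counts nor the medians are support for the list, since technical repeats would also give like values in both letters. Chosen in the a libraries, 104 genes had a median log2 rise of 2.42 there and 2.15 in the b libraries, where 102 of them rose at least 2-fold and 64 at least 4-fold. Their median log2 change after Staufen1 siRNA was 0.08 in a and -0.03 in b. Over all 434 genes raised 4-fold in a, the median in b was -0.63. Chosen in the b libraries, 71 genes had medians of 2.36 in b and 2.48 in a for the rise, and 0.04 and 0.14 for the change after Staufen1 siRNA. In a, 57 of the 71 rose at least 4-fold, and all 392 genes raised 4-fold in b had a median change of -0.68 in a after Staufen1 siRNA. Of the genes chosen in a, 76 of 104 had a recovery under 10% in b, and of those chosen in b, 62 of 71 had it in a. Both the rise of 4-fold and the recovery under 10% were met by 47 of the 104 and by 50 of the 71.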

How the data were processed

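Total RNA (miRNeasy kit) was turned into libraries by the SENSE mRNA kit V2 of Lexogen, per the labels' protocols. The authors deposited estimated counts (RSEM expected counts, in whole numbers) per row of UCSC hg19 transcripts. The submitters' processing notes name RSEM 1.2.3, edgeR and build hg19 with no role for each. How reads were aligned, the strand setting and any rounding are not given in the sources, so antisense partners and near-identical genes are not separated with certainty. Counts were rounded to whole numbers, which changed none, and each of the 6 columns matched 1 library.

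Genes passing edgeR's filterByExpr (10 reads, total 15) numbered 14711. A model with a mean per group and TMM factors was fitted to all 6 libraries (3 residual degrees of freedom), with the two-sided quasi-likelihood test, Benjamini-Hochberg adjustment over all genes and a threshold of 0.05. A call is an adjusted p under 0.05. SE is the log2 change over the square root of its F statistic. Percentiles are among genes tested. The genes and lists were chosen with earlier results of these data known. First IDs are printed for the largest rise and the largest further rise. The other genes described are the 5 first by level, rise and further rise and 3 on either side of each threshold. Alternatives are given with the closing limits. No sequence is shown, since no table links the rows to one. R 4.3.3, edgeR 4.0.16, DESeq2 1.42.0, Python 3.11.15 and matplotlib 3.10.9 were used.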

Additional observations from a re-analysis of the deposited data

How the results depend on the processing

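The number of genes that meet the rule depended on its settings. It was 50 with CPM by TMM effective library sizes (40 of these among the 76), 46 by DESeq2 size factors (37 among the 76) and 48 with 1 CPM added. It was 201 at a log2 rise of at least 1.5, 27 at 2.5, 43 at a recovery below 0 and 176 below 25%. It was 97 and 60 with a siControl level of 0.5 and 2 CPM. With each library left out in turn it ran from 67 to 103, and 43 of the 76 genes met the rule every time. Against siControl, 4847 genes were called higher and 4365 lower with siADAR1, and 7095 and 2406 with library totals, which shift all fold changes. For the combined knockdown these counts were 4224 and 3798, and 5741 and 2349. With edgeR glmTreat beyond 1.5-fold, which asks for more by construction, siADAR1 gave 2296 higher and 1307 lower. That test gave 1544 and 711 for the combined knockdown against siControl, and 448 and 571 against siADAR1, where it called 3 kept genes higher. Kept genes called higher against siADAR1 ran from 17 to 35 with each library left out (the lone library then takes its spread from the other groups), and those called lower from 0 to 1, with 2 under library totals. With the replicate block, 31 kept genes were called higher and 0 lower, where 3265 and 3185 were called over all genes. Over all genes, calls higher against siADAR1 also rose without either siControl library and fell without any other library. Among those other libraries the order was not the same as for the kept genes. The leave-one-out range is not read as a property of the kept genes. Between groups, the deviations of same-lettered libraries had correlations over genes of 0.051, 0.021 and 0.0060, and the letters were not treated as pairs. Rows of 1 transcript were 20.8% of rows with at least 1 CPM in siControl, in place of 23.6% of rows tested. All 40 alternative values of uc002mwr.3 and uc010myt.1 kept their direction and call. Depth counts reads, not molecules, so it limits counting error only.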
